A study of Mus musculus and Ictidomys tridecemlineatus with 36 samples.

Results

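*Mef2c* encodes a MADS-box transcription factor (TF), and the chromatin around it was described here from the peak lists of 5 CUT&RUN targets in 2 species. In mouse, every listed peak that shared at least 1 bp with the annotated *Mef2c* gene (GRCm38 chr13:83504034-83667080, plus strand) or with the 100 kb on either side was taken. In the 13-lined ground squirrel (13LGS), for which no gene annotation was used, the window spanned the 5 accessible elements that the study assigned to *Mef2c* on assembly sequence 1 of HiC_Itri_2, plus 100 kb on either side (Itri1:175257835-175720650). This gave 198 peaks, 64 in the 363 kb mouse window and 134 in the 462.8 kb 13LGS window, out of 532904 peaks in the 10 lists.

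The lists came from 36 libraries of whole neural retina, 16 from 13LGS at postnatal day 5 and 20 from mouse at postnatal day 2. CUT&RUN cuts and releases the DNA next to an antibody-bound protein, and the targets were H3K4me3, H3K27ac, H3K4me1, Otx2 and Neurod1, with IgG as the control. A 13LGS biological replicate pooled 2 individuals and a mouse replicate 3. Each list was called once per species and target over all its libraries, which for the histone marks were 1 library each in 13LGS and 2 each in mouse, for Otx2 6 and 8 libraries (with antibodies of 2 suppliers), and for Neurod1 4 each. The Otx2 and Neurod1 libraries of a species came from 2 biological replicates, the rest being technical replicates, and in 13LGS the Atlas antibody to Otx2 was used in replicate 2 only. A peak therefore has a single fold enrichment over IgG and no replicate spread, the read depth behind it is unknown, and no difference between peaks, windows or species below was tested. Retina holds many cell types, and a mark in few cells cannot be told apart from a weaker mark in many. No genotype or strain was given for the CUT&RUN mice.

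MEF2 proteins bind an A/T-rich DNA element and switch on genes of muscle, heart, vessels, microglia and neurons. Class IIa histone deacetylases hold them inactive, and calcium signalling through kinases and calcineurin relieves that block. H3K4me3 marks active or ready transcription starts, H3K27ac active promoters and enhancers, and H3K4me1 enhancers whether active or poised. Otx2, a homeodomain TF, and Neurod1, a basic helix-loop-helix TF, drive photoreceptor development. In mouse the tissue label was checked by H3K4me3 within 1 kb of a transcript start. Over all protein-coding genes 56% had such a peak. All 10 genes of progenitors and photoreceptor precursors had one (median of 62.0-fold), as did 7 of 8 genes of other retinal neurons (median of 8.59-fold). Among genes of other cells that use *Mef2c*, 1 of 7 microglial (*Sall1*, 4.11-fold), 1 of 6 endothelial (*Kdr*, 55.2-fold) and 1 of 5 muscle genes (*Ckm*, 10.8-fold) had one, and 0 of 4 liver genes did. The part of such cells in the peaks below was not tested.

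Much of the mouse window's signal lay outside *Mef2c*, over the long non-coding RNA gene *C130071C03Rik* (chr13:83721381-83884194, plus strand), which starts 54.3 kb past the end of *Mef2c* and holds *Mir9-2* (chr13:83738814-83738885). *Mir9-2* encodes miR-9, a microRNA of neural progenitors that acts in the timing of neurogenesis. Its mature sequences and the first of the 3 promoters that RefSeq annotates for *C130071C03Rik* are shown because the broadest H3K4me3 peak of the mouse list covers both (RefSeq, GRCm38.p6, 5′ to 3′). Capitals mark the seeds, bases 2 to 8 of each microRNA. The promoter, 250 bases before to 50 after the start at chr13:83721131-83721430 (+), has no capitals because none of the motifs searched below is in it. Of the other promoters, both also under the broad peak, that at chr13:83727856-83728155 held the E-box given below 1 time and lay on an Otx2 peak of 8.003-fold, and that at chr13:83732243-83732542 held no motif and lay on an Otx2 peak of 2.07-fold.

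mmu-miR-9-5p: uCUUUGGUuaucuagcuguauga
mmu-miR-9-3p: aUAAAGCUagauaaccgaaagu
*C130071C03Rik* promoter: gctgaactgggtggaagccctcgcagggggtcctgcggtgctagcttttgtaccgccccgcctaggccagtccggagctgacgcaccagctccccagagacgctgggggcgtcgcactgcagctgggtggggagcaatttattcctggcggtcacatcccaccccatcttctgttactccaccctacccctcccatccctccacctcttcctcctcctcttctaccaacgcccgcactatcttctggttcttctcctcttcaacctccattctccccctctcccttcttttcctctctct

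The next sequences are the central bases, within 150 bp of the summit, of the 3 Otx2 peaks inside *Mef2c* and of the strongest Otx2 peak of the window, which lies in an intron of *C130071C03Rik* (GRCm38, plus strand). Capitals mark TAATCC or its reverse complement GGATTA, the letters that Otx-type homeodomains bind, and CAGATG or its reverse complement CATCTG, an E-box that Neurod1 binds. None of the 4 stretches touches an annotated untranslated region. The summit of the strongest peak also lies in an exon of *Gm33366*, an unclassified transcript on the minus strand.

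*Mef2c* intron, 4.36-fold, chr13:83567660-83567959: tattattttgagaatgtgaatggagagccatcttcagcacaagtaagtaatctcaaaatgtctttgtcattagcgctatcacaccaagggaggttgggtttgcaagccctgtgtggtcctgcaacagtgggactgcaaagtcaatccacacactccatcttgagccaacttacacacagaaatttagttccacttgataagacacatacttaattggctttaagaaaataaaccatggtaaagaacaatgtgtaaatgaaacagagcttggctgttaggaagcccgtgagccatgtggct
*Mef2c* intron, 2.63-fold, chr13:83573929-83574166: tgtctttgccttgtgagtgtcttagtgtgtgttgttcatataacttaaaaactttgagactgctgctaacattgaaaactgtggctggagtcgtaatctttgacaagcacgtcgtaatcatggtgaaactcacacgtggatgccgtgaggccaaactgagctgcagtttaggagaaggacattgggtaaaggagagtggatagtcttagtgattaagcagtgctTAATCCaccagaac
*Mef2c* intron, 3.10-fold, chr13:83656979-83657274: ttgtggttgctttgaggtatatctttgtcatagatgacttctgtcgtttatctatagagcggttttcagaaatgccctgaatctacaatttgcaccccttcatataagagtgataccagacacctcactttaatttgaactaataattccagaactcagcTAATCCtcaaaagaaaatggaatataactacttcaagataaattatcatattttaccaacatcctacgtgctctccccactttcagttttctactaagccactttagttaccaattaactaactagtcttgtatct
*C130071C03Rik* intron, 13.8-fold, chr13:83736263-83736562: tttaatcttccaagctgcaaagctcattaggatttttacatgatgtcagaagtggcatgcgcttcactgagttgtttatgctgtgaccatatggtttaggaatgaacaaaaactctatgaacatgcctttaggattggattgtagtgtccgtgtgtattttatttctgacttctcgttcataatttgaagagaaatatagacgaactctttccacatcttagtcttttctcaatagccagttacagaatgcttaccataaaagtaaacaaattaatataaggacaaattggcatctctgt

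The annotated promoters of mouse *Mef2c* carried little H3K4me3. The gene has 31 annotated transcripts with 27 distinct starts, and 11 of these starts had an H3K4me3 peak within 1 kb. All 11 shared the same peak, 964 bp wide and 7.12-fold enriched, with its summit 20.4 kb past the gene's first start and 86 bp before the nearest annotated transcript start. No H3K4me3, H3K27ac, H3K4me1 or Otx2 peak lay within 1 kb of the 3 starts at the 5′ end of the gene (83504034, 83504206 and 83504240), from which 6 transcripts begin. A second H3K4me3 peak of 250 bp and 4.35-fold lay in an intron 14.4 kb past the first start, and the only H3K27ac peak of the gene, 2.72-fold, had its summit next to it at 14.7 kb. Both *Mef2c* H3K4me3 peaks were below the median of the mouse list (13.5-fold), at its percentiles 30.02 and 16.3. Among the 12289 protein-coding genes with H3K4me3 within 1 kb of a start, the 7.12-fold of *Mef2c* stood at percentile 15.7, with a median over these genes of 17.5-fold.

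H3K4me1 was the main mark of the mouse gene body. It formed 11 peaks there, between 3.41-fold and 19.1-fold. The strongest was 3507 bp wide, 100.9 kb past the first start, and overlapped neither an H3K27ac nor an Otx2 peak. Second among those of the gene body was an 8.91-fold peak at 63.8 kb, whose summit lay beside that of the 4.36-fold Otx2 peak at 63.8 kb. The 2.63-fold Otx2 peak at 70.0 kb lay on a 5.06-fold H3K4me1 peak, 391 bp past an internal transcript start. The 3.10-fold Otx2 peak at 153.1 kb overlapped no histone peak. Neurod1 had 0 peaks in the mouse window, and the nearest Neurod1 peak to the 2 elements that the study assigned to mouse *Mef2c* was 2598.8 kb away.

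Past the gene, a single H3K4me3 peak ran for 27.1 kb (chr13:83714948-83742046), from before the start of *C130071C03Rik* to past *Mir9-2*. It was the widest of the 14069 H3K4me3 peaks of mouse and ranked 20 by fold, at 101-fold. A smaller H3K4me3 peak of 6.71-fold followed at 241.3 kb from the *Mef2c* start. H3K27ac had 8 peaks in or within 10 kb of the broad peak, 5 of them overlapping it, and the 5 with the highest fold of the window reached 7.76-fold, 7.21-fold, 7.07-fold, 6.08-fold and 3.94-fold, against a list median of 3.36-fold. The 7.07-fold H3K27ac peak was 11.1 kb wide, rank 17 of 62930 by width. H3K4me1 near the broad peak reached 13.6-fold, 11.9-fold and 11.3-fold, and a further H3K4me1 peak of 19.1-fold stood alone at 259.5 kb, with no H3K4me3, H3K27ac or Otx2 peak on it.

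Otx2 was dense over this stretch. Of the 25 mouse Otx2 peaks, 21 had a summit in the broad H3K4me3 peak or within 10 kb of it, and 18 overlapped it. Upstream of *C130071C03Rik*, Otx2 peaks at 210.1, 211.3, 212.3, 213.0, 215.2 and 215.9 kb from the *Mef2c* start had 2.13-fold, 6.16-fold, 2.60-fold, 2.90-fold, 2.65-fold and 3.32-fold. The peak on the promoter printed above, with its summit at 217.1 kb, had 4.58-fold. Inside the RNA gene, those at 217.9, 221.3, 221.9, 223.4 and 226.8 kb had 3.52-fold, 5.69-fold, 3.44-fold, 8.003-fold and 6.83-fold. The peaks of this run thus ranged from under the list median of 3.54-fold to above it, with no order from the start onwards. Weak peaks of 2.07-fold, 2.42-fold and 2.25-fold at 228.2, 229.8 and 230.2 kb preceded the strongest, the 13.8-fold peak at 232.4 kb, which ranked 220 of 29115. The peak at 234.6 kb, which spans *Mir9-2*, had 2.65-fold. Further on, peaks at 235.7, 237.8, 241.3, 245.8 and 263.0 kb had 3.10-fold, 2.10-fold, 7.81-fold, 4.86-fold and 2.10-fold.

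**Figure D1:**
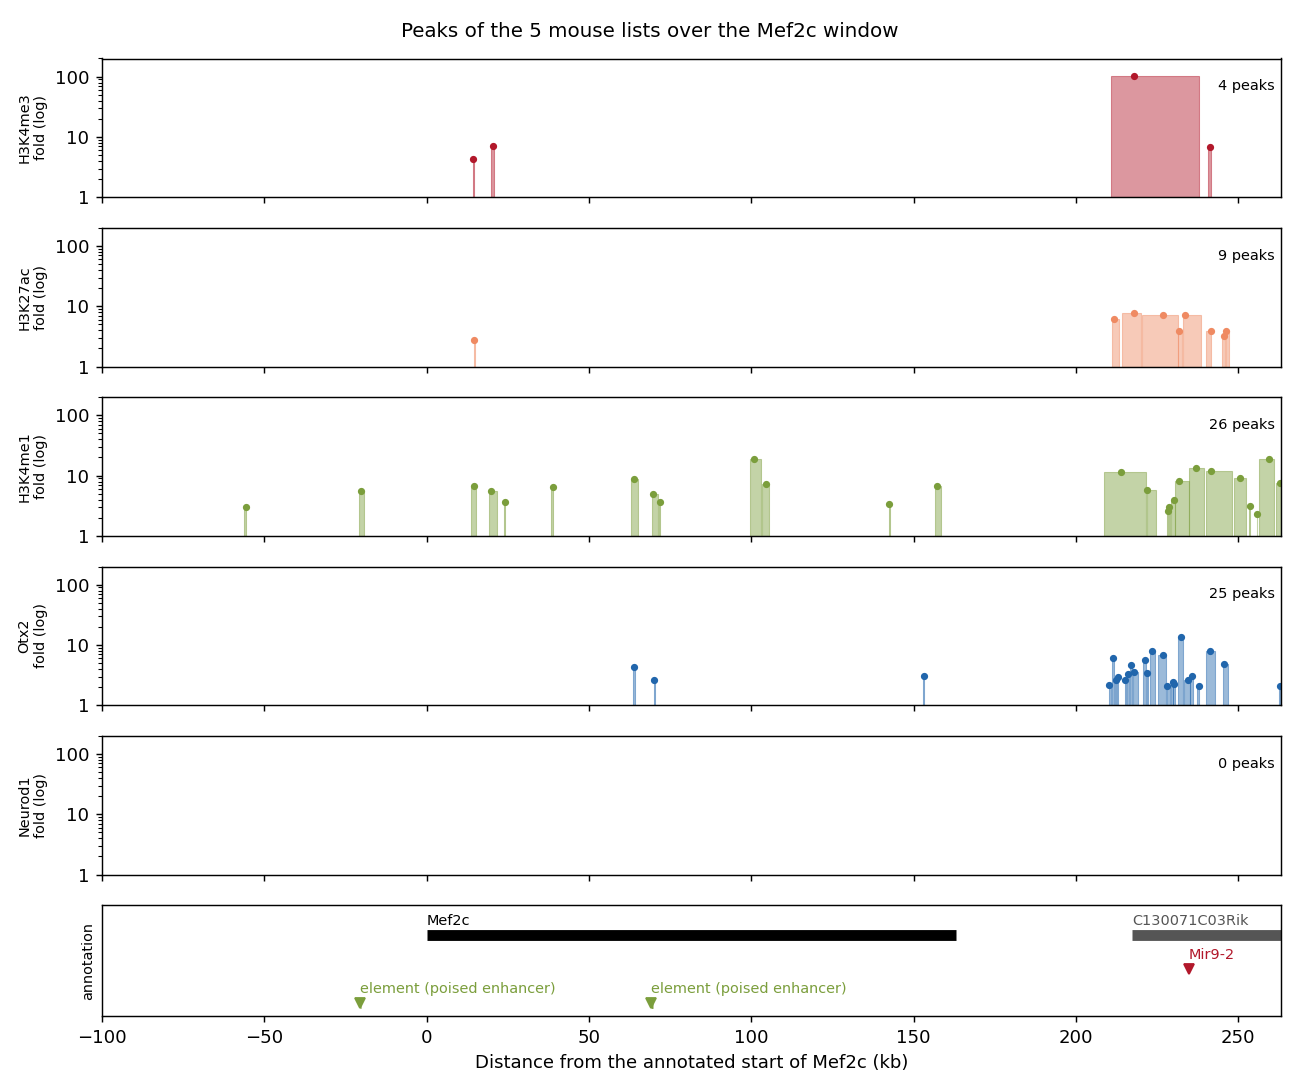
Peaks of the 5 mouse lists over the *Mef2c* window, by distance from the annotated gene start in kb (x axis) and fold enrichment over IgG (log y axis); a box spans each peak and a dot marks its summit, and the bottom row shows *Mef2c*, *C130071C03Rik*, *Mir9-2* and the 2 elements of the study with their class there (4 other annotated RNA genes and pseudogenes are left out). The marks crowd over *C130071C03Rik*, where H3K4me3 reaches 101-fold and Otx2 13.8-fold, while over *Mef2c* H3K4me3 stays at or under 7.12-fold.

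The remaining annotated genes of the mouse window lie in the same stretch or near it: the pseudogenes *Gm48067* and *Gm6411*, 20.1 and 94.1 kb past the end of *Mef2c*, the long non-coding RNA *Gm26803* at 56.4 kb and the unclassified transcript *Gm33366* at 67.6 kb. *Gm26803*, *Gm33366* and *Gm6411* lie on the minus strand within the span of *C130071C03Rik*, so marks there cannot be given to one of these genes. The 19.1-fold H3K4me1 peak at 259.5 kb covers *Gm6411*.

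In 13LGS 7 H3K4me3 peaks were listed, of which 1 lay at the gene-body element that the study classed as a promoter and 5 in and around a broad peak. The fold enrichments of the species were scaled separately, so they are set side by side without a test. The peak at the promoter element, called the first site here, was 2520 bp wide and 24.2-fold, percentile 75.3 of its list, and overlapped that element (Itri1:175422114-175422614). The broad peak was 17.9 kb wide and 122-fold (Itri1:175598856-175616739), rank 2 of 18020 by width and rank 8 by fold. Its summit lay 186.9 kb from that of the first site, and in mouse the 7.12-fold *Mef2c* peak and the summit of the broad peak lay 197.4 kb apart. The 2 genomes were not aligned here, and with no 13LGS annotation used the 17.9 kb peak was given to no gene. H3K4me3 peaks of 19.5-fold, 35.4-fold and 35.9-fold stood just before the broad one, and peaks of 7.94-fold and 2.71-fold lay 197.7 and 291.8 kb from the first gene-body element.

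The H3K4me3 peak at the 13LGS gene-body promoter element had Otx2 on it. Its Otx2 peaks had 4.002-fold and 2.17-fold, 0.3 and 1.4 kb before the element. Only the 4.002-fold peak reached a −log10 q of 5 (9.04), and the 2.17-fold peak had 1.43. Neither of these Otx2 peaks overlapped the element itself, and the nearer one ended 272 bp from it. In mouse, no Otx2 peak lay within 1 kb of any of the 11 starts that carried H3K4me3. H3K27ac was not listed at the 13LGS promoter element, the nearest such peak lying 56.4 kb away.

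Between the H3K4me3 sites, H3K27ac was listed in 13LGS and not in mouse. The stretch from the end of the first site to 10 kb before the broad one was chosen after the values were seen. In it mouse had 0 H3K27ac peaks over 180.2 kb and 13LGS had 17 over 166.2 kb. No background was computed for stretches of this length. Over the longer tiles of window length, the median was 5 H3K27ac peaks per 363 kb in mouse and 13 per 462.8 kb in 13LGS. A low mouse count and a higher 13LGS count are thus also seen over the genome. The 2 stretches end unlike: the mouse one stops 10 kb before the next H3K4me3 peak. That of 13LGS (to Itri1:175588855) ends just before the 19.5-fold H3K4me3 peak (from 175589040) that precedes the broad one. H3K4me1 had 9 peaks in mouse and 25 in 13LGS, and Otx2 3 and 5. H3K27ac covered 0% of the stretch in mouse and 5.84% in 13LGS, and H3K4me1 7.83% and 29.4%. Counting only peaks whose −log10 q reached 5, H3K27ac had 0 and 8, H3K4me1 6 and 18, and Otx2 1 and 3. The 13LGS H3K27ac list was also longer as a whole (93999 peaks against 62930 in mouse) and came from 1 library where the mouse list came from 2, and the part of these in the counts was not tested.

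The strongest H3K4me1 peak of that stretch lay at a like distance in both species and differed in what it carried. In 13LGS it reached 49.8-fold, rank 3 of 141578, was 5276 bp wide and lay 82.5 kb past the first H3K4me3 summit. An H3K27ac peak of 10.8-fold and 3765 bp and an Otx2 peak of 6.41-fold had their summits within its bounds, at 82.4 and 82.5 kb. In mouse the strongest H3K4me1 peak, the 19.1-fold peak at 100.9 kb described above, lay 80.5 kb past the 7.12-fold H3K4me3 summit and had neither. Whether the sequences correspond was not tested, and the comparison was chosen after the values were seen. The other Otx2 peaks of the stretch in 13LGS, 2.95-fold and 4.07-fold at 130.9 and 131.7 kb from the gene-body element and 2.66-fold and 3.303-fold at 164.4 and 166.2 kb, all lay on H3K4me1 peaks, of 21.9-fold for the first pair and 22.6-fold for the second. The 22.6-fold peak runs on past the stretch and overlaps H3K4me3 peaks that stand before the broad one.

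Around the broad 13LGS H3K4me3 peak, 19 of the 31 Otx2 peaks had their summit in it or within 10 kb, and 10 overlapped it. Before it, peaks at 167.4, 168.6, 172.4, 173.0, 174.6 and 175.5 kb had 7.29-fold, 3.23-fold, 3.09-fold, 3.44-fold, 3.36-fold and 3.39-fold. Within it, those at 177.9, 178.5, 179.8, 182.0 and 184.8 kb had 3.67-fold, 2.12-fold, 4.28-fold, 6.08-fold and 3.57-fold, and those at 185.5, 186.3, 190.8, 192.4 and 194.4 kb had 2.82-fold, 3.61-fold, 1.98-fold, 4.51-fold and 3.21-fold. As in mouse, the highest fold was not at the H3K4me3 summit but to its side: the strongest Otx2 peak of the window, 10.0-fold, lay at 198.4 kb, past the broad peak, on the intergenic element that the study classed as a promoter. Peaks of 3.15-fold and 2.49-fold followed at 200.4 and 202.4 kb.

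A last group of 4 Otx2 peaks stood near the right end of the 13LGS window. They had 3.61-fold, 4.32-fold, 3.73-fold and 9.89-fold at 285.6, 287.4, 288.2 and 292.2 kb. The strongest H3K27ac peak of the window lay there too, 12.7-fold and 7512 bp wide at 287.4 kb, rank 188 of 93999, followed by H3K27ac peaks of 8.03-fold and 8.67-fold and one H3K4me1 peak of 28.3-fold that ran for 23.6 kb across the window's end. With the 10.8-fold peak and the 6.39-fold peak at 198.4 kb, these were the 5 strongest H3K27ac peaks of the window. The single Neurod1 peak of the 13LGS window, 3.37-fold, lay at the other end, 149.1 kb before the gene-body element. Peaks of Otx2 (3.31-fold), H3K27ac (3.31-fold) and H3K4me1 (13.9-fold) lay on the same spot.

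**Figure D2:**
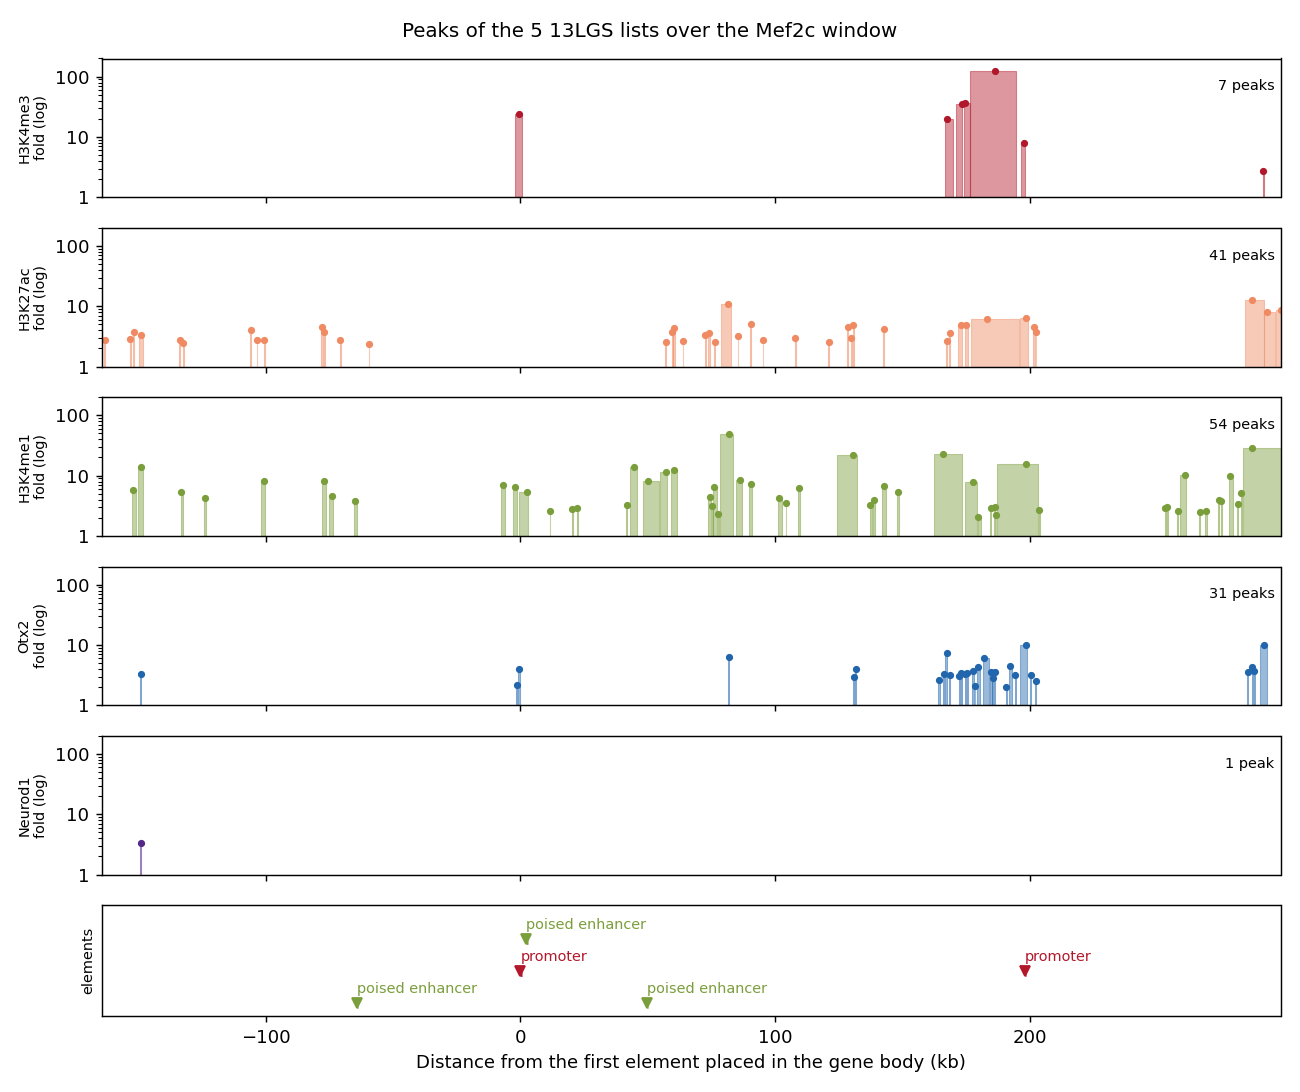
Peaks of the 5 13LGS lists over the *Mef2c* window, by distance in kb from the first element that the study placed in the gene body (x axis) and fold enrichment over IgG (log y axis); boxes span the peaks, dots mark summits, and the bottom row shows the 5 elements with their class in the study. H3K4me3 reaches 24.2-fold at the gene-body promoter element and 122-fold in the broad peak, and 17 H3K27ac and 25 H3K4me1 peaks lie from the first to 10 kb before the broad one, covering 5.84% and 29.4% of that stretch.

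The accessible elements carried the marks by which they had been classed, so their histone peaks are a description of the choice. The 2 mouse elements, both classed as poised enhancers, lay on H3K4me1 peaks of 5.57-fold (intergenic, 20.2 kb before the gene) and 5.06-fold (intronic), with no H3K27ac, H3K4me3, Otx2 or Neurod1 peak on them. The Otx2 peak nearest the intronic element, of 2.63-fold, began 127 bp past it. The 3 poised enhancers of 13LGS lay on H3K4me1 peaks of 3.80-fold, 5.32-fold and 8.24-fold, again with none of the other targets. The 5.32-fold H3K4me1 peak also overlapped the gene-body promoter element, which had no Otx2 peak either. Of the 7 elements, only the intergenic promoter of 13LGS (Itri1:175620150-175620650) had Otx2 on it, at 10.0-fold, with H3K4me3 at 7.94-fold, H3K27ac at 6.39-fold and H3K4me1 at 15.8-fold. The 49.8-fold H3K4me1 site and the H3K27ac group at the right end overlapped no element assigned to *Mef2c*.

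In mouse, most H3K27ac of the window lay on H3K4me3, unlike in the whole list. In 13LGS most did not, as in the list. Of the 9 mouse H3K27ac peaks, 3 had no H3K4me3 peak on them, the combination by which the study classed accessible elements as active enhancers, against 92.4% of all mouse H3K27ac peaks. In 13LGS 34 of 41 had none, against 91%, a share near the background. The windows cover unlike ground: that of 13LGS ran further past its broad H3K4me3 peak and took in the H3K27ac group at its right end. H3K27ac met Otx2 in 8 of 9 mouse peaks (background 16.6%) and 13 of 41 13LGS peaks (background 15.5%), and met H3K4me1 in 9 of 9 (background 58.9%) and 29 of 41 (background 68.5%). H3K4me3 peaks met H3K27ac in 2 of 4 cases in mouse (background 29%) and 6 of 7 in 13LGS (background 40.3%), and Otx2 in 2 of 4 (background 78.6%) and 7 of 7 (background 62.9%). The mouse counts largely describe the broad H3K4me3 stretch, which 5 of the 9 H3K27ac peaks overlapped. The backgrounds were not matched for width, and a wider peak has more room to meet others. In mouse the median widths were 1581 bp against 432 bp in the list for H3K27ac and 1770.5 bp against 805 bp for H3K4me1. In 13LGS they were 417 bp against 455 bp and 1084 bp against 808 bp. H3K4me1 with neither H3K4me3 nor H3K27ac, the marks by which the study classed accessible elements as poised enhancers, made up 16 of 26 mouse peaks (background 69.3%) and 30 of 54 13LGS peaks (background 57.5%), shares near the background in both. H3K4me1 overlapped H3K27ac in 9 of 26 mouse peaks (background 21.5%) and 22 of 54 13LGS peaks (background 35.3%), and Otx2 in 11 of 26 (background 16%) and 12 of 54 (background 12.8%).

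Of the Otx2 peaks, 24 of 25 in mouse (background 92.8%) and 31 of 31 in 13LGS (background 93.3%) lay on a histone peak, shares near the background. An H3K4me3 peak was present on 19 of 25 mouse Otx2 peaks (background 43.3%) and 20 of 31 in 13LGS (background 45.4%). Of these, 18 in mouse and 10 in 13LGS overlapped the 1 broad H3K4me3 peak of the window, so they are not separate cases. The mouse H3K27ac count below lies largely in the same stretch. The H3K27ac and H3K4me1 counts of both species also hold Otx2 peaks that share a wide histone peak, so they too are not all separate cases. Several Otx2 peaks lay on the 18.8 kb H3K27ac peak of 13LGS, and several on the 12.8 kb H3K4me1 peak of mouse. For H3K27ac the counts were 20 of 25 (background 36.2%) and 25 of 31 (background 55%), and for H3K4me1 23 of 25 (background 78.9%) and 29 of 31 (background 71.9%). Outside every histone peak were 1 mouse Otx2 peak (background 7.2%), the 3.10-fold intronic one, and 0 in 13LGS (background 6.67%). With Neurod1, 0 mouse peaks overlapped (background 13.1%) and 1 in 13LGS (background 10.3%).

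In number, Otx2 was the target for which the windows stood highest among tiles of equal length over the genome. The mouse window had 25 Otx2 peaks against a tile median of 2, percentile 99.5 of 7234 tiles, and the 13LGS window 31 against 4, percentile 99.9 of 5248. Merging peaks within 500 bp left 13 and 23 Otx2 peaks, and flanks of 50 kb left 7 and 26. The tile percentiles were not computed for these. The H3K4me3 counts of 4 and 7 (tile medians 1 and 2) stood at percentiles 86.9 and 87.1. In mouse the H3K27ac count of 9 (tile median 5) stood at percentile 68.9 and the H3K4me1 count of 26 (tile median 17) at 71.8. In 13LGS the 41 H3K27ac peaks (tile median 13) stood at percentile 90.3 and the 54 H3K4me1 peaks (tile median 25) at 93.4. By fold, the Otx2 peaks were not high as a group in mouse, with a median of 3.10-fold against 3.54-fold in the list and 9 of 25 above that median. In 13LGS their median was 3.44-fold against 3.15-fold, with 23 of 31 above it.

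**Figure D3:**
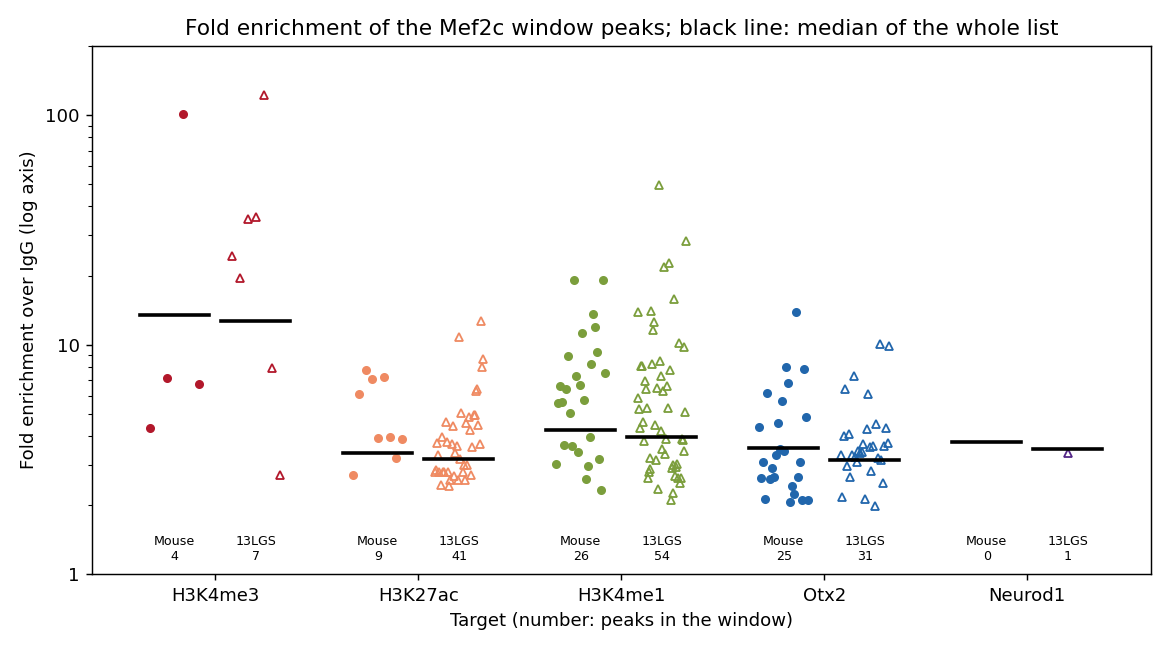
Fold enrichment over IgG (log y axis) of each *Mef2c* window peak, by target and species (x axis; filled circles, mouse; open triangles, 13LGS), with a black line at the median of the whole list; position within a column has no meaning. H3K4me3 spans from 2.71-fold to 122-fold, and Otx2 lies on both sides of its list medians of 3.54-fold in mouse and 3.15-fold in 13LGS.

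*Thrb* and *Rxrg*, which encode nuclear receptors of cone precursors, were set beside *Mef2c* in mouse. Over the gene plus 100 kb on each side, *Mef2c* had 6.89 Otx2 peaks per 100 kb, *Thrb* 1.21 and *Rxrg* 1.24, with a median of 1.81 over 21938 protein-coding genes. The *Mef2c* window stood at percentile 96.2 of the genes for Otx2, and *Thrb* and *Rxrg* at 37.1 and 37.6. For H3K27ac the order was another: *Thrb* had 6.92 peaks per 100 kb (percentile 91.2), *Mef2c* 2.48 (63.5) and *Rxrg* 1.24 (42.3). By bases covered the order of the first pair turned. The H3K27ac peaks of the *Mef2c* window had a median width of 1581 bp, against 432 bp in the list. H3K27ac covered 7.98% of the *Mef2c* window (percentile 95.8), 4.82% of that of *Thrb* (89.1) and 0.48% of that of *Rxrg* (36.8). Within the gene bounds alone, *Mef2c* had 3 Otx2 and 1 H3K27ac peaks over 163 kb and *Thrb* 5 and 37 over 377.8 kb. *Rxrg* had 2 and 1 over 41.2 kb, so inside the genes it had the most Otx2 peaks for its length. Of the 25 Otx2 peaks of the *Mef2c* window, 22 lay in the downstream flank. H3K4me1 had 7.16, 9.17 and 7.88 peaks per 100 kb at *Mef2c*, *Thrb* and *Rxrg*, with a gene median of 6.14 and percentiles of 59.1, 74.8 and 65.2, and covered 17.6%, 11.4% and 9.16% of the windows, so *Mef2c* was again below *Thrb* in number and above it in bases. The H3K4me3 densities were 1.10, 0.17 and 0.41 per 100 kb, with a gene median of 0.99. Neurod1 had 0 peaks at *Mef2c* and *Rxrg* and 1 at *Thrb*.

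**Figure D4:**
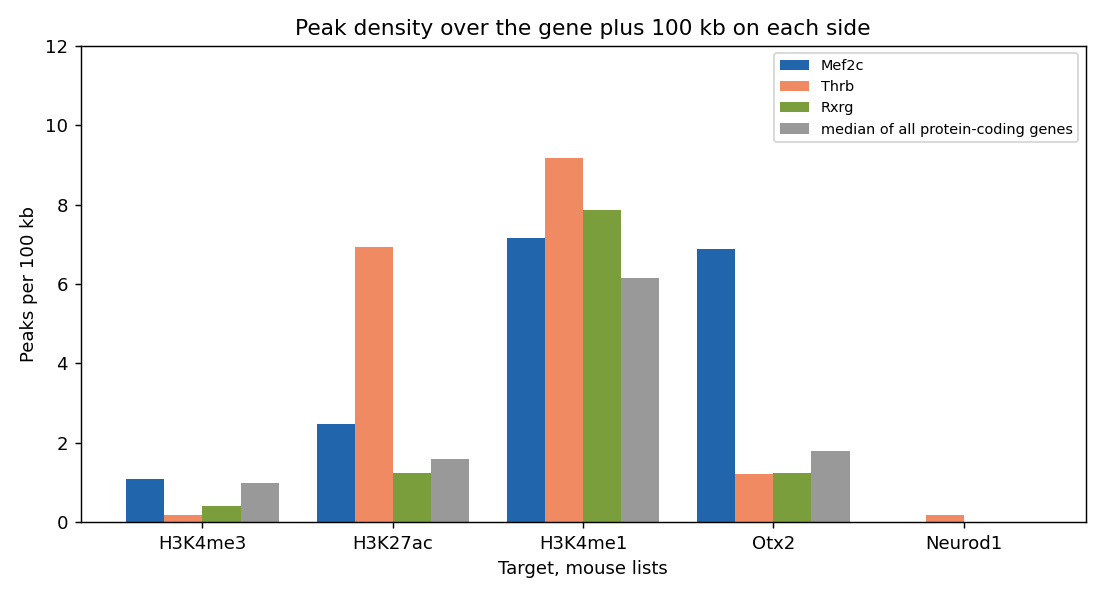
Peaks per 100 kb (y axis) of the 5 mouse lists (x axis) over *Mef2c*, *Thrb* and *Rxrg* with 100 kb on each side, and the median over all protein-coding genes (grey bars). *Mef2c* leads for Otx2 with 6.89 per 100 kb, and *Thrb* has the highest number of H3K27ac peaks, 6.92 per 100 kb, although H3K27ac covers more of the *Mef2c* window (7.98% against 4.82%).

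The motif TAATCC, the E-box CAGATG and the MEF2 consensus, the A/T-rich element of the family, were searched on both strands of the 25 mouse Otx2 peaks, and no match of one overlapped a match of another. The first, called the Otx motif here, was present in 9 peaks (background 28.6%) and the E-box in 11 (background 37.9%). The MEF2 consensus was present in 4 (background 5.15%). Within 150 bp of the summit, a stretch of equal length for every peak that can run past its ends, the Otx motif was found at 5 of 25 summits (in 4 of them inside the peak and in 1 beyond its end) against 18.3% of all mouse Otx2 summits, the E-box in 3 against 22.3% and the MEF2 consensus in 1 against 2.20%. Of the intronic *Mef2c* peaks printed above, the 3.10-fold one held the Otx motif 11 bp from its summit, and the 2.63-fold one 137 bp away. The 4.36-fold peak held the E-box 253 bp from its summit, beyond the bases shown. The 13.8-fold peak held the Otx motif 2 times and the MEF2 consensus 1 time, the nearest of them 555 bp from its summit, so the letters printed for it contain none. Over 32851 RefSeq mouse promoters of 300 bases, the shares holding the Otx motif, the E-box and the MEF2 consensus were 7.06%, 17.2% and 3.19%.

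Genes of the MEF2 pathway were mostly marked at their starts in mouse. Of 20 genes, 18 had H3K4me3 within 1 kb of a transcript start (background 56%), 10 H3K27ac (background 22.6%), 19 H3K4me1 (background 63.6%), 20 Otx2 (background 51%) and 4 Neurod1 (background 5.76%). These backgrounds include genes without H3K4me3, and shares over genes with H3K4me3 alone were not computed. Of all mouse H3K4me3 peaks, 78.6% overlapped an Otx2 peak, so the Otx2 count is not read as particular to this list. Among the family members, which all bind the same element, *Mef2d* had H3K4me3 at 37.5-fold, *Mef2a* at 28.2-fold, *Mef2b* at 16.0-fold and *Mef2c* at 7.12-fold. *Mef2a* and *Mef2d* also had H3K27ac, at 3.01-fold and 2.92-fold, and *Mef2b* and *Mef2c* had none within 1 kb of a start. Otx2 at the starts was 7.86-fold for *Mef2d*, 7.44-fold for *Mef2a*, 3.53-fold for *Mef2b* and 2.63-fold for *Mef2c*, so *Mef2c* was the lowest of the 4 in both. The 2 values of *Mef2c* come from different starts: its Otx2 lay at internal starts without H3K4me3. *Mef2d* alone of them had Neurod1 (4.08-fold).

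Class IIa histone deacetylases, which repress MEF2 targets, all had H3K4me3: *Hdac5* at 33.6-fold, *Hdac7* at 19.6-fold, *Hdac9* at 13.3-fold and *Hdac4* at 11.03-fold. *Hdac9* had the highest H3K27ac and H3K4me1 of the 20 genes, 10.6-fold and 24.9-fold. The kinases that phosphorylate MEF2 or its repressors differed. *Mapk14* and *Mapk7* had H3K4me3 at 36.8-fold and 23.4-fold, *Camk4* at 5.96-fold, the only value under that of *Mef2c*, and *Camk2a* had none. The catalytic subunits of calcineurin, the calcium-dependent phosphatase, had 58.1-fold (*Ppp3ca*), 25.1-fold (*Ppp3cb*) and 12.3-fold (*Ppp3cc*), and the highest Otx2 of the list, 14.4-fold, was at *Ppp3ca*. Of the partners, the acetyltransferases *Ep300* and *Crebbp* had H3K4me3 at 63.0-fold and 47.2-fold, the coactivators *Ncoa2* and *Carm1* at 36.1-fold and 27.2-fold, and *Myocd*, a coactivator of muscle, had none and H3K4me1 at 10.6-fold.

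**Figure D5:**
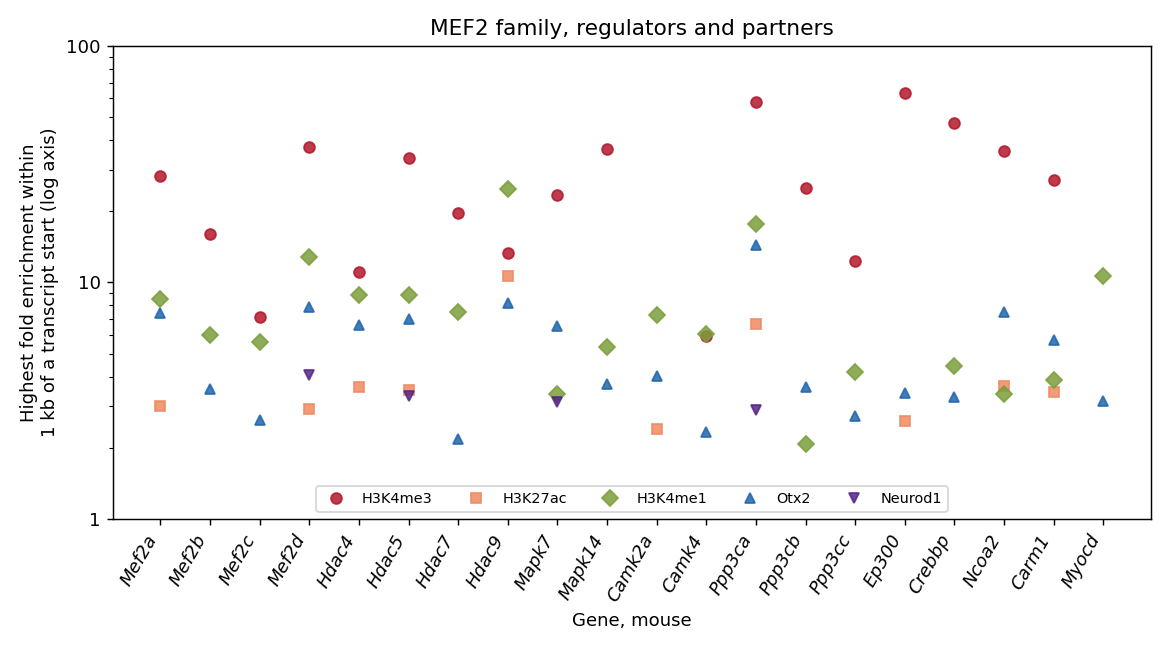
Highest fold enrichment over IgG (log y axis) of the 5 mouse targets within 1 kb of a transcript start, for *Mef2c* and 19 family members, regulators and partners (x axis); a missing symbol means no listed peak. *Mef2c* has H3K4me3 at 7.12-fold, with only *Camk4* lower at 5.96-fold among the genes that have it.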

How the data were processed

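CUT&RUN was done on whole neural retina of 13LGS (postnatal day 5) and mouse (postnatal day 2) with antibodies to 5 targets and IgG. The authors trimmed the reads (cutadapt 3.5, Trim Galore 0.6.4), aligned them with Bowtie2 to GRCm38 or HiC_Itri_2, filtered them with SAMtools 1.12, removed duplicates with UMI-tools, and called peaks jointly over the libraries of a target against IgG with MACS2 at a q of 0.05. Mouse blacklist and mitochondrial regions were removed. The deposited lists give each peak's fold enrichment, a ratio over the IgG control, and its −log10 q-value. Joint calling leaves no spread between replicates, and a broad mark can be cut into several peaks, so counts depend on merging.

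Groups were taken from the sample labels. Peaks were intersected (at least 1 bp) in Python 3.11.15 with pandas 2.3.3, and the overlap code was tested on simulated intervals against bedtools 2.31.1, with 0 differences. Mouse peaks were placed by summit on GENCODE M21 (GRCm38). Element positions came from the supplementary list of the study. Sequences and motifs of 13LGS were not analysed here. The authors classed accessible elements by their marks and required a minimum average signal; here peaks were classed by overlap alone, without accessibility or signal. Percentiles are the share of peaks, tiles or genes at or below a value. Named are every H3K4me3, Otx2 and Neurod1 peak of the windows, the 5 H3K27ac and 5 H3K4me1 peaks with the highest fold per window, peaks on elements, annotated genes of the mouse window, a list of 20 MEF2 pathway genes, and *Thrb* and *Rxrg*. The members and lists were chosen with earlier results of these data known. Alternatives were a −log10 q of at least 5, a fold of at least 2.5, flanks of 50 kb, peaks within 500 bp merged, an overlap of 250 bp, summits in place of whole factor peaks, motifs within 150 bp of the summit, 500 bp around transcript starts, and bases covered in place of counts.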

Additional observations from a re-analysis of the deposited data

How the results depend on the processing

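Of 97 alternative values, 74 stayed within 1.5 times the reported count (for a percentile, within its 95% exact binomial interval) and 23 moved. With a threshold of 5 on −log10 q, the mouse window kept 14 Otx2 peaks, and the 13LGS window 23 H3K27ac peaks and 0 Neurod1 peaks. Under the same threshold, mouse H3K4me1 without the other marks fell to 10, 13LGS H3K27ac without H3K4me3 to 18 and 13LGS H3K4me1 with H3K27ac to 14. Between the H3K4me3 sites (an alternative added after seeing the data), it left 1 mouse Otx2 peak, 3 Otx2 peaks in 13LGS and 8 H3K27ac peaks in 13LGS. Flanks of 50 kb left 2 H3K27ac, 13 H3K4me1 and 7 Otx2 peaks in mouse and 0 Neurod1 peaks in 13LGS, since most of the mouse peaks lie over 50 kb past *Mef2c*. Merging peaks within 500 bp gave 5 H3K27ac, 17 H3K4me1 and 13 Otx2 peaks in mouse. By bases covered, the mouse *Mef2c* window stood at percentile 97.0 of the genes for H3K4me3, 95.8 for H3K27ac, 91.7 for H3K4me1 and 98.0 for Otx2. Within 150 bp of the summit, the Otx motif was found at 5 summits (1 of these matches lies beyond the end of its peak), the E-box at 3 and the MEF2 consensus at 1.

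No paired analysis was possible because each list pools the libraries of a target and species. For the same reason no library could be left out. The read depth behind the lists is unknown, and 13LGS histone lists rest on 1 library each, so peaks missing from a list may lie under its detection limit.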
